A study of Homo sapiens with 18 samples.

Results

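The genes described here encode the proteins of the centromere, the kinetochore and the spindle assembly checkpoint. They were taken from a list of 45 symbols set by function, and 43 of them had a row among the 20705 genes of the count table, with KNL1 listed under its older symbol CASC5 (CENPN and PMF1 were not analysed here). Of the 43 genes, 14 encode constitutive centromere proteins and 3 encode factors that deposit the centromeric histone. A further 23 encode the outer kinetochore and the checkpoint, namely 9 of the KMN network, 3 of the Ska complex, 3 of the RZZ complex, 2 of the fibrous corona and 6 checkpoint proteins. The remaining genes are 2 shugoshins and CENPJ, which despite its name is known as a protein of the centriole.

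Poly-A RNA of CHL1 and A375, established human melanoma cell lines labelled with the genotype WT, was sequenced in 18 libraries that form 9 groups of 2 replicates. In the study's methods the lines differ in mutations, with wild-type BRAF and mutant p53 in CHL1 and mutant BRAF and wild-type p53 in A375. CHL1 cells received DMSO for 72 hours (control_72hr), 1 μM palbociclib for 72 hours (CDK4/6i_72hr) or 6 days (CDK4/6i_6d), or 500 nM GSK3326595 for 72 hours (PRMT5i_72hr). A375 had the same 4 groups and a further DMSO control at 6 days (control_6d), which the 6-day A375 samples are set against. Both CHL1 palbociclib groups are set against control_72hr and share it. Palbociclib blocks CDK4 and CDK6, the kinases of the G1 phase, and GSK3326595 inhibits the arginine methyltransferase PRMT5. The methods speak of replicates of each culture condition but, like the labels, do not say that they were separate cultures, so p-values measure only the spread between these samples, which may be technical.

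The kinetochore is built on chromatin that carries CENP-A, a variant of histone H3 that the chaperone HJURP loads with the help of proteins such as MIS18A. A constitutive network of CENP proteins sits on this chromatin through the whole cell cycle, and in mitosis it recruits the KMN network (KNL1, MIS12 and NDC80 complexes), which binds microtubules. Unattached kinetochores gather the RZZ complex, the corona proteins and the checkpoint proteins, which hold anaphase back. Many of these genes are known to be transcribed in late S phase and G2, and in quiescent cells the DREAM complex represses many of them through CHR elements near the start site.

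Promoters are shown for the 3 genes with the largest mean fall under CDK4/6i_72hr over the 2 cell lines among those with a RefSeq sequence (SPC25, CENPU and CENPK), and for CENPB, chosen for contrast as a constitutive gene. A RefSeq window (GRCh38.p14, 250 bases before to 50 bases after the start site) was found for 34 of the 43 genes. CENPH, CENPL, CENPM, MIS18A, CASC5, KNTC1, BUB3, TTK and CENPJ had no entry. Each line gives the 250 bases before the start, 5′ to 3′ on the gene's own strand, with matches to the motifs in capitals. Both strands were searched for the CHR element in the form TTTGAA and in its variant form with the letters TTCGAA, for the CCAAT box, and for 4 forms of an E2F site, written TTTCCCGC, TTTGGCGC, TTTCGCGC and TTTGCCGC.
SPC25, chr2:168890431-168890680, minus strand: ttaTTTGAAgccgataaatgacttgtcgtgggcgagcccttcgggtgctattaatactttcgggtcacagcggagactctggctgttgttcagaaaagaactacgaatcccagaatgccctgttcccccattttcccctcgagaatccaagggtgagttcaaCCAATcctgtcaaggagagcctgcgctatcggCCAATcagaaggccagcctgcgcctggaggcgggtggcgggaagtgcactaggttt
CENPU, chr4:184734097-184734346, minus strand: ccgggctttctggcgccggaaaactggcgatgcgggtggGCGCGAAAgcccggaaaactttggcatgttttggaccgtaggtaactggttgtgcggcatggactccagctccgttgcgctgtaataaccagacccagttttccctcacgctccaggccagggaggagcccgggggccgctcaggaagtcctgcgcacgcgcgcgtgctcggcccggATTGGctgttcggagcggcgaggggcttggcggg
CENPK, chr5:65563169-65563418, minus strand: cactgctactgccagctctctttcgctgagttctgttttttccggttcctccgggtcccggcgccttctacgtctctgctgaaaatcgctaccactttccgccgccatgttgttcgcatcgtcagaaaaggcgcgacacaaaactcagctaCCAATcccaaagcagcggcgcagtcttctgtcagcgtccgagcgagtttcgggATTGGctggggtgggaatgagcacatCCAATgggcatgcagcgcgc
CENPB, chr20:3786741-3786990, minus strand: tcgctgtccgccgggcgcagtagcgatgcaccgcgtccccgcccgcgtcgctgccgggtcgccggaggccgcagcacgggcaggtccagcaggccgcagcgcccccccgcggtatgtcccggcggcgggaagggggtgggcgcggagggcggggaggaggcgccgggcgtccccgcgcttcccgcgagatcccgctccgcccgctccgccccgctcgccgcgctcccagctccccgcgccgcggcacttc
SPC25, a subunit of the NDC80 complex, had 1 CHR and 2 CCAAT matches in this stretch and 1 more CHR match in the first 50 transcribed bases. CENPU had 1 E2F and 1 CCAAT match, CENPK had 3 CCAAT matches, and CENPB had 0 matches to any of the motifs.

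Over the whole 300-base windows, 18 of the 34 promoters (52.9%) held a CHR string, compared with 16.6% of the 27305 promoters of the same length in the RefSeq table. A CCAAT string was found in 20 of the 34 (58.8%) and in 35.7% of all promoters, and an E2F string in 4 (11.8%) and in 3.3% of all. CHR strings occurred in 4 of 11 constitutive centromere promoters (36.4%) and in 11 of 19 promoters of outer kinetochore and checkpoint genes (57.9%). Of the 13 promoters of genes that fell under CDK4/6i_72hr in both lines, 8 held a CHR string (61.5%), as did 8 of the 14 that fell in 1 line (57.1%) and 2 of the 7 that fell in neither (28.6%). No match of a motif overlapped a match of another motif in these 34 windows. A match of letters describes the sequence and does not show that a factor binds there.

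Libraries held 16213475 to 37424081 counts in total. The mean level of each of the 43 genes over all libraries was 1 or more on the counts-per-million (CPM) scale, 42 had more than 10 counts in every library, and the lowest count of any of them in a library was 8 (CENPT). Base composition set some libraries apart. For each library, genes in the 10% of highest GC content were set against the 10% of lowest GC content, as the difference in their median log2 deviation from the cell line's median. This GC tilt was -2.49 and -1.98 in the CHL1 PRMT5i_72hr libraries and -2.27 and -1.12 in the A375 control_6d libraries, and it lay between -0.17 and 0.50 in the others. Transcripts of the 43 genes had a median GC content of 41.1%, below the 47.5% of the 13675 genes with a GC value and at least 1 CPM, so values after a correction for GC content are given beside the results that rest on these 4 libraries. Column names of the count table follow one scheme for the 6 A375 libraries of 72 hours and another for the other 12 libraries. Melanoma markers were detected only in part. Group means of MITF lay between 69.0 and 177 CPM and those of S100B between 3.79 and 92.3 CPM. DCT was at 36.4 to 134 CPM in CHL1 and at 0 to 1.33 CPM in A375. PRAME was at 81.7 to 141 CPM in A375 and at 0 to 0.037 CPM in CHL1. PMEL (0.45 to 3.00 CPM), TYR (0.024 to 2.82 CPM) and TYRP1 (0.30 to 3.43 CPM) were near 0, and SOX10, MLANA and S100A1 were not analysed here. Of 12 markers of epithelial, fibroblast, blood and endothelial cells 8 were in the table, and their summed level was higher in every treated group than in its control. It was 24.5 and 21.2 CPM in the CHL1 controls, 36.1 and 33.0 CPM under CDK4/6i_72hr, 54.9 and 56.0 CPM under CDK4/6i_6d and 48.9 and 43.2 CPM under PRMT5i. In A375 it was 17.4 and 17.1 CPM in the 72-hour controls, 25.04 and 24.43 CPM under CDK4/6i_72hr, 33.2 and 36.0 CPM under PRMT5i, 13.4 and 22.7 CPM in the 6-day controls and 27.6 and 33.9 CPM under CDK4/6i_6d. Single markers did not all follow the sum. COL1A1 had group means in A375 of 10.6 CPM in the 72-hour control, 5.87 CPM under CDK4/6i_72hr and 24.7 CPM under PRMT5i. In CHL1 it had 1.52 CPM in the control and 0.32 CPM under PRMT5i. LUM and PTPRC made up most of the sum in CHL1, where KRT5 was at 0 in every group mean, and the part of these markers in the results was not tested.

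In untreated cells the genes spanned a wide range of levels, measured as CPM per kilobase of the canonical transcript so that genes can be compared. In the CHL1 control the highest were MAD1L1 at 113 CPM per kb, CENPF at 54.0, CENPK at 48.3 and CENPU at 47.9. In the A375 control of 72 hours the order began with CENPB at 71.4 CPM per kb, followed by MAD1L1 at 55.5, CENPF at 43.9 and CENPH at 42.3. CENPT was the lowest in both controls, at 0.56 and 0.98 CPM per kb. MAD1L1, BUB1B and CENPA share 43.2%, 10.2% and 7.1% of their annotated exon bases with another gene on the same strand, so part of their counts is uncertain. The exons of OIP5, CENPP, CENPO, CENPT, SGOL1, CENPU, ZWILCH and MIS12 overlap genes on the opposite strand. The overlap covers 92.5%, 43.2%, 31.6%, 20.2%, 15.8%, 14.9%, 10.9% and 9.5% of their bases, in that order. Whether the libraries keep strand is not stated, so reads of these genes and their partners cannot be told apart.

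Following 72 hours of CDK4/6i in CHL1, 14 of the 43 genes fell and 0 rose, at an edgeR quasi-likelihood adjusted p below 0.05 (Benjamini-Hochberg over all 20705 genes). Of all genes in the table, 2.72% were lower and 2.27% were higher in this comparison. The 14 genes comprised CENPA, CENPU and CENPP of the centromere, HJURP, and 10 genes of the outer kinetochore and checkpoint (NDC80, NUF2, SPC24, SPC25, SKA2, SKA3, KNTC1, CENPE, BUB1 and BUB1B). At an unadjusted p below 0.05, 25 genes were lower and 0 higher, and DESeq2 called 19 lower and limma on log2(CPM + 1) called 3 lower, each with 0 higher. Both treated libraries lay below both controls for 36 of the 43 genes, compared with 27.9% of all genes, and above both controls for 3, compared with 30.1%. The median log2 fold change was -0.49 for the 43 genes and 0 for all genes. With the GC correction 20 genes were lower and 0 higher, against 8.68% and 7.41% of the 13675 genes in that fit. Leaving out any of the 4 libraries compared left 0 or 1 of the genes called. In bulk RNA a smaller share of cells in G2 and mitosis and less RNA per cell cannot be told apart.

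CENPA, the histone variant that marks the centromere, had 43.7 and 40.7 CPM in the CHL1 control libraries, 23.8 and 26.4 CPM under CDK4/6i_72hr, and 29.8 and 26.9 CPM under CDK4/6i_6d. All 4 treated libraries were below both controls, and the log2 fold changes of -0.75 ± 0.17 (SE) at 72 hours and -0.56 ± 0.17 at 6 days passed the test (adjusted p = 0.0307 and 0.0443). HJURP, its chaperone, had 113 and 90.3 CPM in the controls, 54.5 and 50.3 CPM at 72 hours and 55 and 59.9 CPM at 6 days. It fell to about the same level at both times, by 0.96 ± 0.16 on the log2 scale at 72 hours (adjusted p = 0.00776) and by 0.81 ± 0.16 at 6 days (adjusted p = 0.00671). CENPC, which bridges CENP-A chromatin and the outer kinetochore, had 51.01 and 45.95 CPM in the controls, 36.2 and 37.3 CPM at 72 hours and 40.9 and 36.5 CPM at 6 days. All of its treated libraries were lower than both controls, but neither log2 fold change passed the test (-0.40 ± 0.15, adjusted p = 0.166 at 72 hours, -0.31 ± 0.15, adjusted p = 0.198 at 6 days). CENPB, which binds a sequence box in alpha satellite DNA, had 99.6 and 87.4 CPM in the controls, 86.1 and 71.9 CPM at 72 hours and 96.5 and 90.97 CPM at 6 days, and its 6-day libraries overlapped the controls. As counted CENPB was not called at either time, whereas with the GC correction it was called lower at both (-0.49, adjusted p = 0.0182, and -0.34, adjusted p = 0.0435).

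In the KMN network, NDC80, the microtubule-binding subunit, had 42.5 and 41.8 CPM in the CHL1 controls, 23 and 27.5 CPM under CDK4/6i_72hr and 25.99 and 21.1 CPM under CDK4/6i_6d. It fell at both times, with log2 fold changes of -0.74 ± 0.18 and -0.82 ± 0.18 (adjusted p = 0.0369 and 0.00993). SPC24, which joins NDC80 to the inner kinetochore, had the largest called fall at 72 hours, from 35.1 and 31.4 CPM to 16.6 and 13.99 CPM. Its log2 fold change was -1.12 ± 0.19, adjusted p = 0.0073, a level 2.18-fold lower. CASC5, the scaffold that recruits BUB proteins, had 116 and 101 CPM in the controls, 61.9 and 75.8 CPM at 72 hours and 83.2 and 69.7 CPM at 6 days. Its treated libraries did not overlap the controls, while its adjusted p-values of 0.0548 and 0.0805 missed the threshold. MIS12, the linker between the inner and outer kinetochore, had 23.6 and 23.4 CPM in the controls and 19.3 and 20.9 CPM at 72 hours, with a log2 fold change of -0.23 ± 0.19, adjusted p = 0.588, and it had 18.4 and 16.1 CPM at 6 days (-0.43 ± 0.20, adjusted p = 0.16).

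CENPE, the mitotic kinesin of the corona, had 143 and 134 CPM in the CHL1 controls, 82.7 and 95.1 CPM under CDK4/6i_72hr and 118 and 94.8 CPM under CDK4/6i_6d. It fell at 72 hours (-0.64 ± 0.16, adjusted p = 0.0453), and at 6 days its lower value did not pass the test (-0.37 ± 0.16, adjusted p = 0.15). CENPF, its large partner in the corona, had 580.3 and 531 CPM in the controls, 352 and 356 CPM at 72 hours and 370.3 and 353 CPM at 6 days, with adjusted p-values of 0.0931 and 0.0639 although the groups did not overlap. ZW10, the RZZ subunit that also works in membrane traffic outside mitosis, had 35.7 and 32.3 CPM in the controls, 25.9 and 25.9 CPM at 72 hours and 24.3 and 23.2 CPM at 6 days, with log2 fold changes of -0.39 ± 0.19 and -0.50 ± 0.19 that missed the threshold (adjusted p = 0.281 and 0.0984).

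Among the checkpoint genes, the kinase gene BUB1 had 154 and 139 CPM in the CHL1 controls, 91.2 and 95.1 CPM under CDK4/6i_72hr and 92.8 and 87.1 CPM under CDK4/6i_6d. BUB1B, which encodes BubR1 of the mitotic checkpoint complex, had 105 and 95.5 CPM in the controls, 60.7 and 62.6 CPM at 72 hours and 61.4 and 54.8 CPM at 6 days. Both genes fell at both times, by log2 fold changes of -0.65 and -0.69 for BUB1 and -0.71 and -0.78 for BUB1B, each with an SE of 0.15 to 0.17. The other 4 checkpoint genes did not pass the test at either time. BUB3, the shared partner of BUB1 and BubR1, had 179.6 and 154 CPM in the controls, 142 and 139.5 CPM at 72 hours and 157 and 126 CPM at 6 days. MAD2L1, the MAD2 gene, had 114 and 87.9 CPM in the controls, 89.7 and 94.2 CPM at 72 hours and 156 and 87.5 CPM at 6 days, where the treated libraries spread more widely than the controls. MAD1L1, which anchors MAD2 at kinetochores, had 294 and 317 CPM in the controls, 226 and 217 CPM at 72 hours and 175 and 290.1 CPM at 6 days. The MAD2L1 groups overlapped at both times and the BUB3 groups at 6 days, while both treated groups of MAD1L1 lay below its controls. TTK, the kinase that starts checkpoint signalling, had 98.7 and 83.6 CPM in the controls, 70.8 and 74.3 CPM at 72 hours and 95.9 and 80.9 CPM at 6 days, and its 6-day log2 fold change was -0.029 ± 0.17. SGOL1, which protects cohesin at centromeres, had 32.4 and 26.4 CPM in the controls, 23.2 and 26.9 CPM at 72 hours and 41.3 and 27 CPM at 6 days, with the groups overlapping at both times.

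After 6 days of CDK4/6i in CHL1, 16 of the 43 genes fell and 0 rose, with 7.8% of all genes lower and 8.83% higher. DESeq2 called 20 and limma called 12 of the genes lower, and 27 of the genes were lower at p below 0.05 before adjustment. The 16 were CENPA, CENPI, CENPM, CENPO, CENPP and CENPU of the centromere, HJURP, NDC80, NUF2, SPC24 and SPC25 of the NDC80 complex, SKA2, SKA3, KNTC1, BUB1 and BUB1B. Both treated libraries were below both controls for 30 genes and above them for 0, with 29.5% and 31.3% of all genes. With the GC correction 25 genes were lower and 0 higher, against 17.6% and 15% of genes in that fit. The largest called fall was that of SKA2, a subunit of the Ska complex that couples kinetochores to microtubules. SKA2 had 36.6 and 39.1 CPM in the controls, 16.4 and 19.4 CPM at 72 hours and 16.9 and 13.9 CPM at 6 days, and its 6-day log2 fold change was -1.28 ± 0.20, adjusted p = 0.00202, or 2.43-fold lower. The comparison of the 6-day with the 72-hour CDK4/6i samples, which does not involve the shared control, called 0 of the 43 genes by edgeR, DESeq2 and limma. None of the 43 had an unadjusted p below 0.05, log2 differences lay between -0.21 (CENPO) and 0.47 (SGOL1), and edgeR called 3 of the 20705 genes (0.0145% higher, 0% lower). Leaving out CHL1 control_72hr replicate 1 lowered the 6-day count to 2, and leaving out control replicate 2 or CDK4/6i_6d replicate 2 lowered it to 5 and 10.

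**Figure D1:**
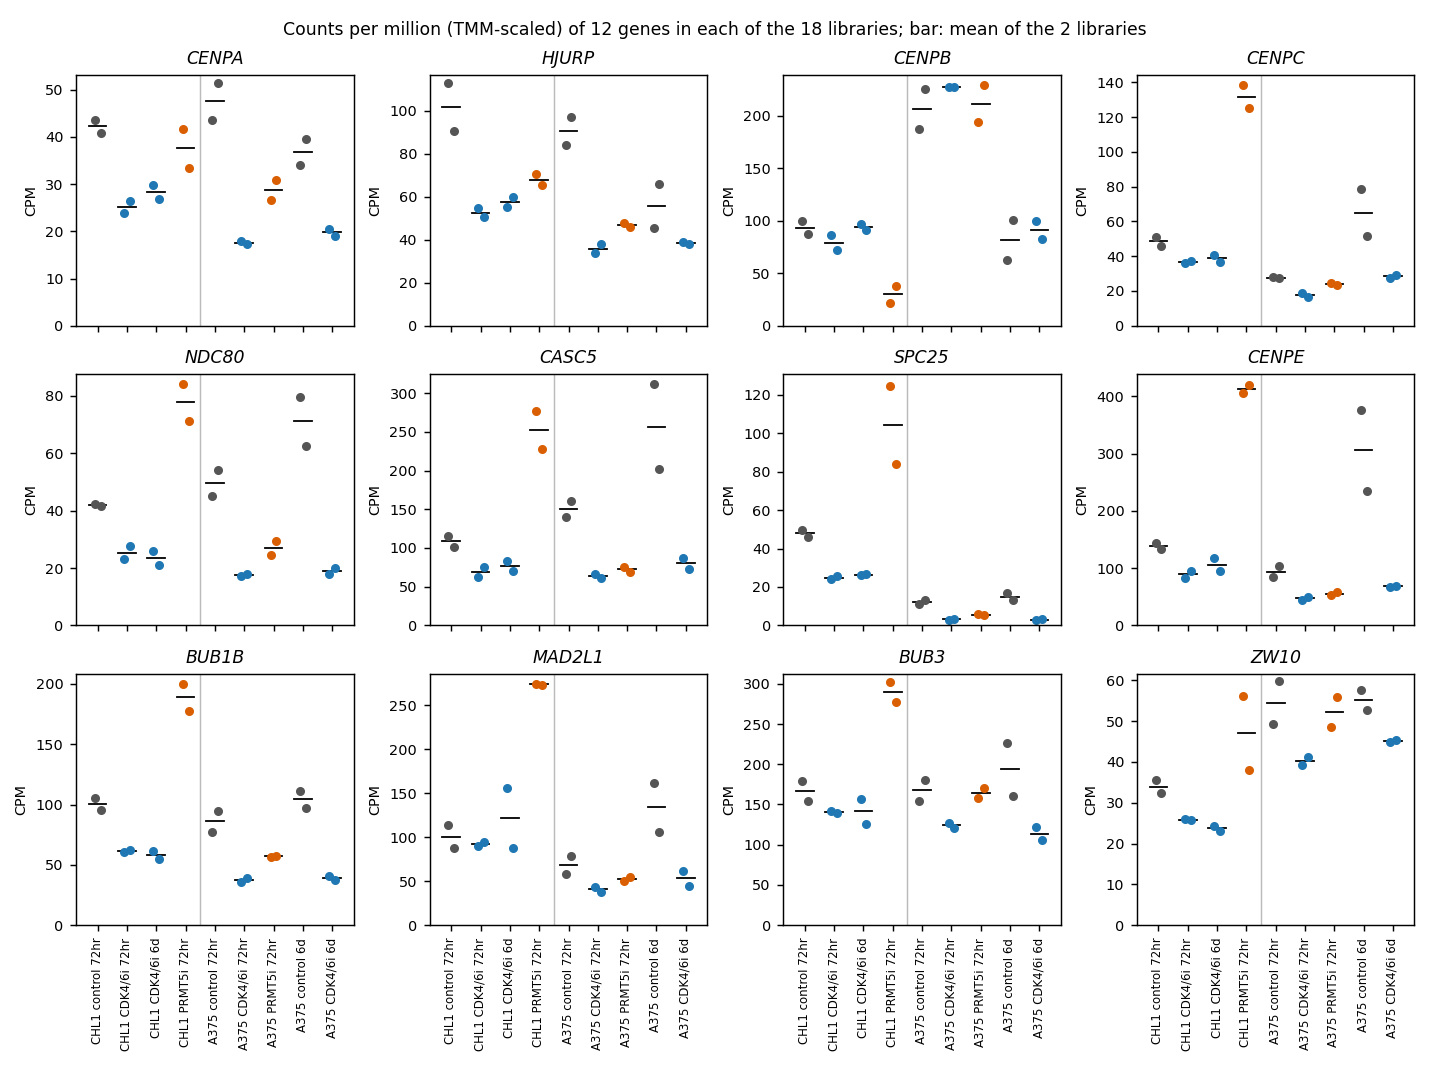
Levels in CPM, scaled by TMM over all libraries, of 12 genes in each of the 18 libraries (points), with the mean of the 2 libraries of a group as a bar; control libraries are grey, CDK4/6i blue and PRMT5i orange, with CHL1 left of the vertical line and A375 right of it. CENPA, NDC80, SPC25 and BUB1B were lower in all CDK4/6i libraries than in the control libraries they were compared with, while the CHL1 PRMT5i libraries lay above the CHL1 controls for CENPC, CASC5, CENPE and MAD2L1.

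In A375, 72 hours of CDK4/6i lowered 33 of the 43 genes and raised 1, CENPT, while 7.11% of all genes were lower and 6.22% were higher. The genes that fell included 10 of 14 constitutive centromere genes, 18 of 23 outer kinetochore and checkpoint genes, HJURP and OIP5, both shugoshins and CENPJ. The median log2 fold change was -1.06 for the 43 genes and 0.0018 for all genes. Both treated libraries lay below both controls for 41 of the 43 genes and above them for the other 2, CENPB and CENPT, compared with 29.2% and 37.1% of all genes. With the GC correction 36 genes were lower and 1 was higher, against 16% and 12.8% of genes in that fit. Leaving out A375 CDK4/6i_72hr replicate 1 left 20 genes called, and leaving out control_72hr replicate 2 left 21. After 6 days, compared with the 6-day control, 34 genes fell and 1 rose, again CENPT, with 21.3% of all genes lower and 21.8% higher and a median of 0.096 for all genes. The median of the 43 genes was -1.18, and both treated libraries were below both controls for 38 genes and above them for 2, with 30.5% and 37.6% of all genes. The 6-day control libraries are those with a GC tilt, and after the GC correction 34 genes were lower and 2 higher, with 21.4% and 20.9% of the 13675 genes called. The 2 higher genes were CENPT and a gene of the RZZ complex (0.59), and the median of the 43 genes was -0.84. As counted, all 3 RZZ genes had negative log2 fold changes and treated libraries below both controls, so the RZZ gene changed direction with the correction.

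CENPA had 43.7 and 51.5 CPM in the A375 control of 72 hours and 17.96 and 17.3 CPM under CDK4/6i_72hr, and it had 34.1 and 39.6 CPM in the 6-day control and 20.5 and 19.02 CPM under CDK4/6i_6d. It fell by 1.49 ± 0.19 on the log2 scale at 72 hours (adjusted p = 0.000111) and by 0.90 ± 0.19 at 6 days (adjusted p = 0.00133, corrected -1.01). HJURP went from 84.2 and 97.05 CPM to 33.9 and 37.9 CPM at 72 hours and from 45.3 and 65.8 CPM to 39.1 and 37.99 CPM at 6 days. It fell at both times (-1.39 ± 0.20, adjusted p = 0.000313 at 72 hours, -0.54 ± 0.20, adjusted p = 0.0382, corrected -0.74, at 6 days). CENPC had 28.1 and 27.4 CPM in the control and 18.6 and 16.7 CPM under CDK4/6i_72hr, and 78.6 and 51.4 CPM and 27.7 and 29.1 CPM in the 6-day pair of groups. It fell at both times (log2 fold changes -0.71 ± 0.20 and -1.19 ± 0.20, adjusted p = 0.0301 and 0.000291), and after the GC correction the values were -0.49 and -0.44. CENPB had 187 and 226 CPM in the control and 227 and 228 CPM under CDK4/6i_72hr, and 62.4 and 101 CPM and 99.5 and 82.8 CPM at 6 days. Neither CENPB comparison passed the test (0.083 ± 0.22, adjusted p = 0.86 and 0.15 ± 0.22, adjusted p = 0.619, the latter -0.19 and not called after the GC correction). The CENPB level in both control_6d libraries was below that in both control_72hr libraries. Set against the 72-hour control the 6-day log2 fold change was -1.22, where treatment cannot be told apart from time and the library naming scheme.

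CENPT, a DNA-binding subunit of the constitutive network that also binds the NDC80 complex, went the other way. It had 2.22 and 2.83 CPM in the A375 control and 5.39 and 5.00 CPM under CDK4/6i_72hr, and 1.44 and 2.13 CPM in the 6-day control and 4.15 and 5.64 CPM under CDK4/6i_6d. Its log2 fold changes were 0.98 ± 0.31, adjusted p = 0.0442 at 72 hours and 1.45 ± 0.30, adjusted p = 0.00139 at 6 days, and both remained called after the GC correction (0.84 and 0.88). In CHL1, CENPT had 1.66 and 1.24 CPM in the controls and 2.58 and 2.01 CPM under CDK4/6i_72hr, with a log2 fold change of 0.66 ± 0.36, adjusted p = 0.346. These are low levels, and part of the CENPT exons overlaps genes on the other strand. CENPH, a subunit of the same network, had the largest called fall at 6 days, from 130.4 and 78.3 CPM to 18.2 and 18.9 CPM (-2.49 ± 0.23, adjusted p = 3.10e-06, and -2.13 after the GC correction). At 72 hours CENPH went from 54.1 and 60.4 CPM to 20.4 and 16.6 CPM (-1.69 ± 0.22, adjusted p = 0.000143).

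In the KMN network of A375, SPC25 had the largest called fall at 72 hours, from 10.96 and 13 CPM to 2.96 and 3.60 CPM, a log2 fold change of -1.92 ± 0.25, adjusted p = 0.000121 or 3.79-fold lower. NDC80 had 44.98 and 54.2 CPM in the control and 17.2 and 18.1 CPM under CDK4/6i_72hr, and 79.6 and 62.6 CPM and 17.8 and 20.04 CPM at 6 days. CASC5 had 139.7 and 161 CPM in the control and 66.2 and 60.8 CPM under CDK4/6i_72hr, and 312 and 202 CPM and 87.7 and 72.6 CPM at 6 days. Both genes fell at both times, NDC80 by 1.55 and 1.91 and CASC5 by 1.30 and 1.68 on the log2 scale, each with an SE of 0.19 to 0.21, and the 6-day values after the GC correction were -1.36 for NDC80 and -0.93 for CASC5. MIS12 had 26.8 and 29.4 CPM in the control and 22.2 and 20.3 CPM under CDK4/6i_72hr (-0.46 ± 0.21, adjusted p = 0.162), and 45.5 and 28.7 CPM and 23.3 and 23.6 CPM at 6 days. MIS12 fell at 6 days (-0.66 ± 0.20, adjusted p = 0.017), but after the GC correction its log2 fold change was -0.086 and no longer passed.

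CENPE had 84.4 and 103 CPM in the A375 control and 44.95 and 49.3 CPM under CDK4/6i_72hr, and 376 and 235 CPM and 67.8 and 69.1 CPM at 6 days. CENPF had 423 and 480.5 CPM in the control and 168 and 187 CPM under CDK4/6i_72hr, and 675 and 508 CPM and 228 and 182 CPM at 6 days. Both corona genes fell at both times, with log2 fold changes of -1.05 and -2.15 for CENPE and -1.40 and -1.53 for CENPF (SE 0.20 to 0.21), and the 6-day values after the GC correction were -1.14 and -1.08. ZW10 had 49.4 and 59.7 CPM in the control and 39.4 and 41.3 CPM under CDK4/6i_72hr, and 57.7 and 52.6 CPM and 44.9 and 45.3 CPM at 6 days, where neither comparison passed the test (adjusted p = 0.0699 and 0.179).

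Of the checkpoint genes, BUB1 had 81.4 and 104 CPM in the A375 control and 39.3 and 42.5 CPM under CDK4/6i_72hr, and 78.7 and 74.1 CPM and 39.6 and 35.99 CPM at 6 days. BUB1B had 77.03 and 94.95 CPM in the control and 36.03 and 39.3 CPM under CDK4/6i_72hr, and 112 and 97.3 CPM and 40.4 and 37.70 CPM at 6 days. Both fell at both times (log2 fold changes -1.24 and -1.02 for BUB1, -1.25 and -1.42 for BUB1B), with corrected 6-day values of -0.69 and -1.17. TTK had 47.01 and 58.05 CPM in the control and 26.1 and 26.4 CPM under CDK4/6i_72hr, and 127 and 80.7 CPM and 35.4 and 27.1 CPM at 6 days. MAD2L1 had 58.2 and 78.3 CPM in the control and 43.5 and 37.9 CPM under CDK4/6i_72hr, and 162 and 106 CPM and 61.2 and 45.02 CPM at 6 days. TTK and MAD2L1, which were not called under CDK4/6i in CHL1, fell in A375 at both times (-1.06 and -1.73 for TTK, -0.80 and -1.33 for MAD2L1, with corrected 6-day values of -1.26 and -0.61, both still called), but the difference between the lines at 72 hours did not pass its own test (adjusted p = 0.422 and 0.632).

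BUB3 had 155 and 180.5 CPM in the A375 control and 127 and 121 CPM under CDK4/6i_72hr (-0.49 ± 0.19, adjusted p = 0.0998), and 227 and 160.4 CPM and 122 and 106 CPM at 6 days (-0.77 ± 0.19, adjusted p = 0.0046). MAD1L1 had 158 and 140.5 CPM in the control and 98.7 and 112 CPM under CDK4/6i_72hr (-0.56 ± 0.23, adjusted p = 0.119), and 89.5 and 147 CPM and 148 and 193 CPM at 6 days (0.52 ± 0.23, adjusted p = 0.0798, and -0.036 after the GC correction). Neither gene passed at 72 hours, although both treated libraries lay below both controls for each, and BUB3 fell at 6 days, with a corrected value of -0.34 that was still called. SGOL1 had 23.1 and 27.8 CPM in the control and 10.2 and 11.3 CPM under CDK4/6i_72hr, and 69.5 and 45.1 CPM and 13.9 and 12.8 CPM at 6 days. It fell at both times (-1.30 ± 0.22, adjusted p = 0.00121 and -2.10 ± 0.22, adjusted p = 8.61e-06), and the 6-day value after the GC correction was -1.44.

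Whether the change under CDK4/6i in A375 differed between 72 hours and 6 days was tested with each time against its own control. edgeR and limma called 0 of the 43 genes and DESeq2 called 3, and before adjustment 6 genes were lower and 5 higher at p below 0.05. The log2 differences ranged from -1.10 ± 0.29 for CENPE to 1.08 ± 0.32 for MAD1L1 (adjusted p = 0.0727 and 0.106), with 0.908% of all genes called lower and 0.174% higher. Leaving out A375 control_6d replicate 2, which leaves the library of stronger GC tilt as the only 6-day control, raised the count to 18. Once corrected for GC content, CENPU was the only gene of the 43 called (0.69), against 1.18% of genes lower and 0.395% higher in that fit.

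All 14 genes that fell under CDK4/6i_72hr in CHL1 also fell in A375, where they made up 14 of 33, and 1.68% of all genes were lower in both lines. These comparisons share no samples. In the fit of all 18 libraries, the change under CDK4/6i_72hr was more negative in A375 than in CHL1 for 40 of the 43 genes, with a median difference of -0.53, compared with 0.032 for all genes. Of these differences, 1 passed the test, that of SKA1, a subunit of the Ska complex (log2 difference -1.25 ± 0.25, adjusted p = 0.028), and 0.241% of all genes were called in this direction and 0.401% in the other. An unadjusted p below 0.05 was reached by 19 of the 43, all more negative in A375. SKA1 had 33.2 and 29.9 CPM in the CHL1 control and 22.6 and 28.2 CPM under CDK4/6i_72hr, and 21.1 and 27.2 CPM and 7.92 and 8.46 CPM in A375. DESeq2 and limma each called 1 gene, and 4 were called with the replicate block, where shares of all genes were not counted. Leaving out A375 control_72hr replicate 1 kept 1 gene called, and leaving out any other of the 8 libraries compared left 0. At 72 hours the A375 and CHL1 libraries follow different naming schemes, and the line and a library set behind the names cannot be told apart. After correction for GC, 6 genes were called more negative in A375 (SKA1, CENPH, SGOL1, CENPK, NUF2 and CENPA) and 0 more positive, against 2.07% and 1.7% of genes in that fit.

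**Figure D2:**
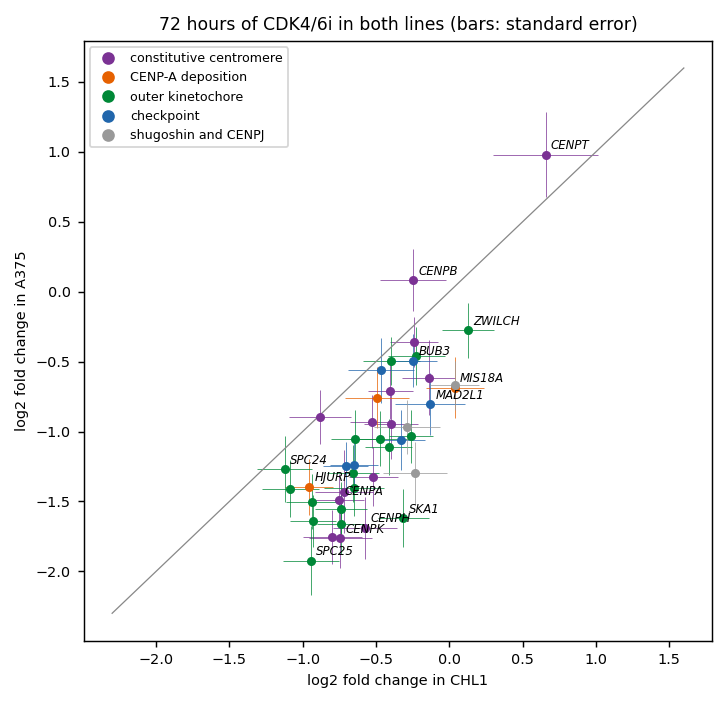
Log2 fold change of each of the 43 genes under CDK4/6i_72hr in CHL1 (horizontal) and A375 (vertical), with the standard error as bars, the line of equal change in grey and colours for the roles of the genes. Most points lie below the grey line, and CENPT, at 0.66 and 0.98, stands apart from the other genes.

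Some or all of 14 listed proliferation genes fell in each CDK4/6i comparison. In CHL1 it was 6 at 72 hours and 9 at 6 days, against 2.72% and 7.8% of all genes lower, and in A375 it was 14 and 11, against 7.11% and 21.3%. Their summed level was 2119 to 2452 CPM in the CHL1 controls, 1273 to 1294 CPM under CDK4/6i_72hr and 1132 to 1383 CPM under CDK4/6i_6d. In A375 it was 2290.0 to 2785 CPM in the 72-hour controls and 898 to 1008 CPM under CDK4/6i_72hr, and 2101 to 2144 CPM in the 6-day controls and 814 to 869 CPM under CDK4/6i_6d. The part of this shift in the results for the 43 genes was not tested.

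The constitutive centromere and the outer kinetochore and checkpoint were compared by the medians of their log2 fold changes, and the difference between the cell lines in this contrast was not tested. In CHL1 at 72 hours, 3 of 14 centromere genes and 10 of 23 outer genes fell, with median log2 fold changes of -0.52 and -0.64. The gap between these medians (outer minus centromere) was -0.12, and it lay between -0.15 and -0.037 over the 4 pairs of 1 treated and 1 control library. At 6 days 6 centromere and 9 outer genes fell, with medians of -0.56 and -0.50, and the gap of 0.059 was within the SD of 0.067 between CHL1 replicates and outside the -0.24 to 0.00020 of the library pairs. In A375 at 72 hours, 10 of 14 and 18 of 23 genes fell, with medians of -0.94 and -1.24. The gap of -0.30 was larger in size than the SD of 0.064 between A375 replicates, but it lay outside the -0.25 to -0.15 of the library pairs. At 6 days, 10 and 19 genes fell, with medians of -0.75 and -1.33 and a gap of -0.58 (-0.81 to -0.31). After the GC correction the gap at 72 hours was -0.083 in CHL1 and -0.11 in A375, and at 6 days it was -0.040 in CHL1 and -0.28 in A375. As counted, the 6-day A375 gap was -0.12 against the 72-hour control, which is of another time and library naming scheme. The gap also depended on how it was taken. Between the median levels of the layers (log2(CPM + 0.5), outer minus centromere), A375 had 0.99 and 1.17 in the 72-hour controls and 0.93 and 1.16 under CDK4/6i_72hr, and 0.79 and 1.01 in the 6-day controls and 0.85 and 0.78 under CDK4/6i_6d. On that measure treated and control libraries overlapped in A375 at both times. CHL1 had 0.90 and 0.87 in the controls, 0.98 and 1.03 under CDK4/6i_72hr and 1.20 and 0.82 under CDK4/6i_6d. Both CHL1 libraries of CDK4/6i_72hr thus lay above both controls, the opposite direction to the gap of -0.12, and the 6-day libraries overlapped the controls. The centromere genes had a median GC content of 43.2% and the outer genes 40.8%. No p-value is given for these gaps, since they are medians over chosen genes.

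Within both layers the genes spread widely. In the centromere layer, values at 72 hours in A375 ran from -1.76 (CENPK) and -1.75 (CENPU) to 0.083 (CENPB) and 0.98 (CENPT), with CENPL and CENPW also not called (adjusted p = 0.203 and 0.141). In the outer layer they ran from -1.92 (SPC25) to -0.28 (ZWILCH), and MIS12, ZW10, ZWILCH, BUB3 and MAD1L1 were not called. Among the factors that deposit CENP-A, HJURP fell in all 4 CDK4/6i comparisons, OIP5 fell in A375 (-0.76 and -0.94, the latter -0.99 after the GC correction), and MIS18A fell in A375 at 6 days (-0.75 ± 0.21, adjusted p = 0.0103, corrected -0.60), with -0.69 ± 0.22, adjusted p = 0.0512 at 72 hours.

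**Figure D3:**
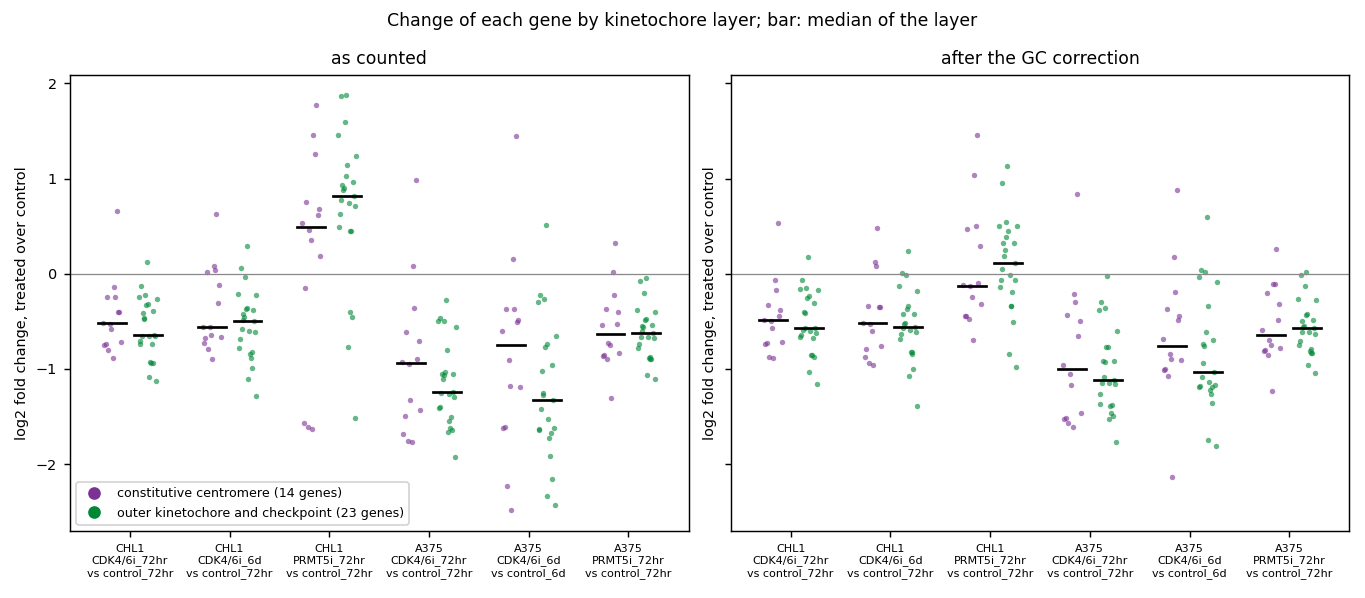
Log2 fold change of each of the 14 constitutive centromere genes (purple) and 23 outer kinetochore and checkpoint genes (green) in the 6 comparisons of treated with control cells, with the median of each layer as a bar, as counted (left) and after the GC correction (right). The layers overlap in every comparison, and in A375 after 6 days of CDK4/6i the medians stand at -0.75 and -1.33 as counted.

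Under PRMT5i in CHL1, 30 of the 43 genes rose and 8 fell, while 26.4% of all genes were higher and 27.6% were lower. Both treated libraries were above both controls for 32 genes and below them for 9, with 36.2% and 39.6% of all genes. The genes that rose comprised 7 of 14 centromere genes, 19 of 23 outer kinetochore and checkpoint genes, MIS18A, both shugoshins and CENPJ, and the genes that fell were CENPB, CENPT, CENPM, HJURP, SPC24, DSN1, ZWINT and MAD1L1. Medians of the log2 fold changes were 0.50 for the centromere and 0.82 for the outer genes, a gap of 0.32 with an SD between replicates of 0.067. Both CHL1 PRMT5i libraries carry the GC tilt, and across the 43 genes the log2 fold change ran against GC content (Spearman's rho = -0.70, a description over genes that share these libraries, and -0.82 over 13675 genes). After the GC correction 13 genes were higher and 6 lower, with 17% and 17.5% of all genes, and the medians were -0.12 for the centromere and 0.11 for the outer genes. All 3 Ska genes rose as counted, and with the correction 1 of them was called lower (-0.50). Of the 14 proliferation genes, 7 fell and 3 rose as counted, and 0 were lower and 1 higher with the correction. The part of the GC tilt in these results was not tested beyond the correction.

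The values in single libraries show the size of the change. SGOL2, the second shugoshin, had the largest called rise, from 81.2 and 77.4 CPM to 265 and 335 CPM (1.94 ± 0.23, adjusted p = 0.000107, and 0.66 after the GC correction). SGOL1 went from 32.4 and 26.4 CPM to 77.3 and 91.2 CPM (1.54 ± 0.22, adjusted p = 0.000199, corrected 0.62). TTK went from 98.7 and 83.6 CPM to 359 and 297 CPM (1.87 ± 0.17, adjusted p = 8.22e-05, corrected 1.13). These 3 genes remained called higher with the GC correction. CENPE went from 143 and 134 CPM to 406 and 419.7 CPM (1.59 ± 0.17, adjusted p = 8.32e-05, corrected 0.39), and CENPF went from 580.3 and 531 CPM to 1116 and 680.4 CPM (0.71 ± 0.21, adjusted p = 0.0112, corrected -0.017). BUB1B went from 105 and 95.5 CPM to 200.1 and 178 CPM (0.93 ± 0.15, adjusted p = 0.000406, corrected 0.45). CENPE and BUB1B kept a smaller called rise with the correction, and CENPF did not.

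BUB1 went from 154 and 139 CPM to 223 and 170.3 CPM in CHL1 under PRMT5i, with a log2 fold change of 0.45 ± 0.16 and a corrected value of -0.14. BUB3 went from 179.6 and 154 CPM to 302 and 277 CPM (0.82 ± 0.16, corrected 0.11), and MAD2L1 went from 114 and 87.9 CPM to 274 and 274 CPM (1.46 ± 0.24, corrected 0.50). All 3 rose as counted, and none was called with the GC correction (adjusted p = 0.416, 0.518 and 0.062). MAD1L1, of high GC content, went from 294 and 317 CPM to 148 and 205 CPM, and fell (-0.77 ± 0.22), whereas with the correction it was called higher (0.54, adjusted p = 0.0495). NDC80 went from 42.5 and 41.8 CPM to 84.2 and 71.4 CPM (0.90 ± 0.18, corrected 0.055), CASC5 from 116 and 101 CPM to 277 and 228 CPM (1.24 ± 0.18, corrected 0.25), and MIS12 from 23.6 and 23.4 CPM to 46.6 and 32.7 CPM (0.78 ± 0.19, corrected -0.064). ZW10 went from 35.7 and 32.3 CPM to 56.1 and 38 CPM (0.49 ± 0.19, corrected -0.069). These 4 genes rose as counted and were not called with the correction.

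At the centromere in CHL1 under PRMT5i, CENPA had 41.8 and 33.4 CPM against 43.7 and 40.7 CPM in the controls and did not pass the test (-0.15 ± 0.17, adjusted p = 0.497). HJURP went from 113 and 90.3 CPM to 70.5 and 65.3 CPM and fell with and without the correction (-0.56 ± 0.16 and -0.39). CENPC went from 51.01 and 45.95 CPM to 138 and 125 CPM and rose with and without it (1.46 ± 0.16 and 0.47). CENPB had the largest called fall, from 99.6 and 87.4 CPM to 21.7 and 37.96 CPM (-1.63 ± 0.23, adjusted p = 0.000205), and its corrected value of -0.24 was not called. The transcript of CENPB has the highest GC content of the 43 genes, at 66.5%.

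**Figure D4:**
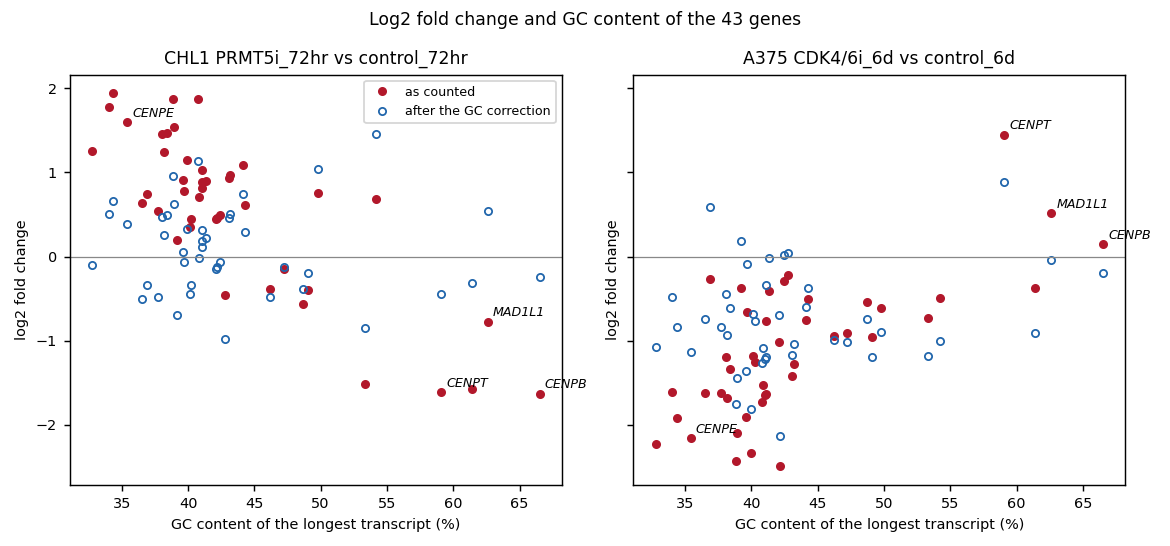
Log2 fold change against the GC content of the longest transcript for the 43 genes, under PRMT5i_72hr in CHL1 (left) and CDK4/6i_6d in A375 (right), as counted (red, filled) and after the GC correction (blue, open). As counted, the fold change falls with GC content in CHL1 and rises with it in A375, where the treated samples were compared with controls that carry the tilt.

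In A375, 15 of the 43 genes fell under PRMT5i and 0 rose, with 1.74% of all genes lower and 0.874% higher. The 15 genes comprised 6 of 14 centromere genes (CENPA, CENPH, CENPI, CENPK, CENPP and CENPU), 6 of 23 outer genes (NDC80, SPC25, CASC5, DSN1, SKA2 and KNTC1), HJURP, OIP5 and SGOL1. An unadjusted p below 0.05 was reached by 32 genes, all lower, and DESeq2 called 20 and limma 6. Both treated libraries were below both controls for 38 genes and above them for 1, with 26.2% and 26.9% of all genes. Medians were -0.63 for the centromere and -0.62 for the outer genes, and the gap of 0.0068 was within the replicate SD of 0.064. Once corrected for GC content, 28 genes were lower and 0 higher (6.49% and 3.83% of genes in that fit). Leaving out any of the 4 libraries compared left 0 of the 43 genes called. With the replicate number as a block in the fit, 36 of the 43 genes were called lower and 0 higher. The share of all genes called in that fit was not counted, and whether the numbers pair the libraries is not stated. The summed level of the proliferation genes was 1437 to 1580 CPM, below both controls, and its part in the result was not tested.

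CENPI, a subunit of the constitutive network, had the largest called fall in A375 under PRMT5i, from 19.6 and 22.4 CPM to 9.21 and 7.95 CPM (-1.30 ± 0.21, adjusted p = 0.00609, or 2.47-fold lower). CENPA had 26.5 and 30.8 CPM and HJURP 47.7 and 46.02 CPM under PRMT5i, and both fell (-0.74 ± 0.19, adjusted p = 0.0454 and -0.96 ± 0.20, adjusted p = 0.019). NDC80 had 24.6 and 29.6 CPM and CASC5 75.7 and 69.3 CPM, and both fell (-0.89 ± 0.19 and -1.06 ± 0.21). SGOL1 had 12.3 and 14.3 CPM and also fell (-0.95 ± 0.22, adjusted p = 0.0316). Of the genes whose values missed the threshold, CENPC had 24.7 and 23.2 CPM, CENPE 52.6 and 57.8 CPM and CENPF 275 and 297 CPM under PRMT5i. CENPE (-0.78 ± 0.21, adjusted p = 0.0575) and CENPF (-0.67 ± 0.20, adjusted p = 0.0815) were called lower with the GC correction, and CENPC was not.

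The 6 checkpoint genes were not called in A375 under PRMT5i as counted, although the libraries of 5 of them did not overlap the controls. With the GC correction 2 of the 6 were called lower, against 6.49% of genes in that fit. BUB1 had 60.8 and 66.5 CPM, BUB1B 56.5 and 57.5 CPM and TTK 35.6 and 37.1 CPM, with log2 fold changes of -0.56 ± 0.17, -0.60 ± 0.17 and -0.54 ± 0.21 (adjusted p = 0.108, 0.075 and 0.211). MAD1L1 had 91.2 and 105 CPM, MAD2L1 50.5 and 55.1 CPM and BUB3 158 and 171 CPM. The BUB3 libraries overlapped the controls (-0.040 ± 0.19). CENPB with 194 and 229 CPM, ZW10 with 48.6 and 55.98 CPM and MIS12 with 25.2 and 23.98 CPM were not called either, with log2 fold changes of 0.022 ± 0.22, -0.074 ± 0.17 and -0.21 ± 0.21.

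The change under PRMT5i differed between the lines for 34 of the 43 genes in the fit of all 18 libraries, 31 with a more negative and 3 with a more positive change in A375, compared with 18.8% and 22.1% of all genes. The 3 genes were CENPB (1.68 ± 0.34), CENPT (1.97 ± 0.54) and SPC24 (0.80 ± 0.31). The most negative differences were those of SGOL2 (-2.53 ± 0.32), NUF2 (-2.51 ± 0.28) and SGOL1 (-2.45 ± 0.32). After correction for GC, 23 genes were called more negative in A375 and 0 more positive, against 13.7% and 12.3% of all genes, and the corrected difference of CENPB was 0.13. Here too the line and the library naming scheme cannot be told apart.

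PRMT5i was also compared directly with CDK4/6i at 72 hours, without the controls. In CHL1, 33 genes were higher and 3 lower under PRMT5i than under CDK4/6i, with 28.4% and 29.4% of all genes, and 28 and 3 with the GC correction (24.4% and 23.3%). The largest difference was that of NUF2, which had 182 and 191 CPM under PRMT5i and 29.5 and 32.1 CPM under CDK4/6i (2.62 ± 0.17, adjusted p = 1.03e-05, corrected 1.62). In A375, 11 genes were higher and 0 lower under PRMT5i, with 2.37% and 3.09% of all genes, led by SKA1 with 17.9 and 17.1 CPM and 7.92 and 8.46 CPM (1.14 ± 0.21, adjusted p = 0.00578). An unadjusted p below 0.05 was reached by 25 genes that were higher and 1 that was lower, and DESeq2 called 12 genes and limma 9. Once corrected for GC content, 19 genes were higher and 0 lower, against 9.88% and 8.58% of genes in that fit. The others of the 11 were CENPA, CENPH, CENPK, CENPU, NUF2, SKA3, KNTC1, CENPF, BUB1 and BUB1B. With the replicate number as a block 32 genes were higher and 1 lower, and the share of all genes called in that fit was not counted. Leaving out any of the 4 A375 libraries compared left 0 genes called.

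**Figure D5:**
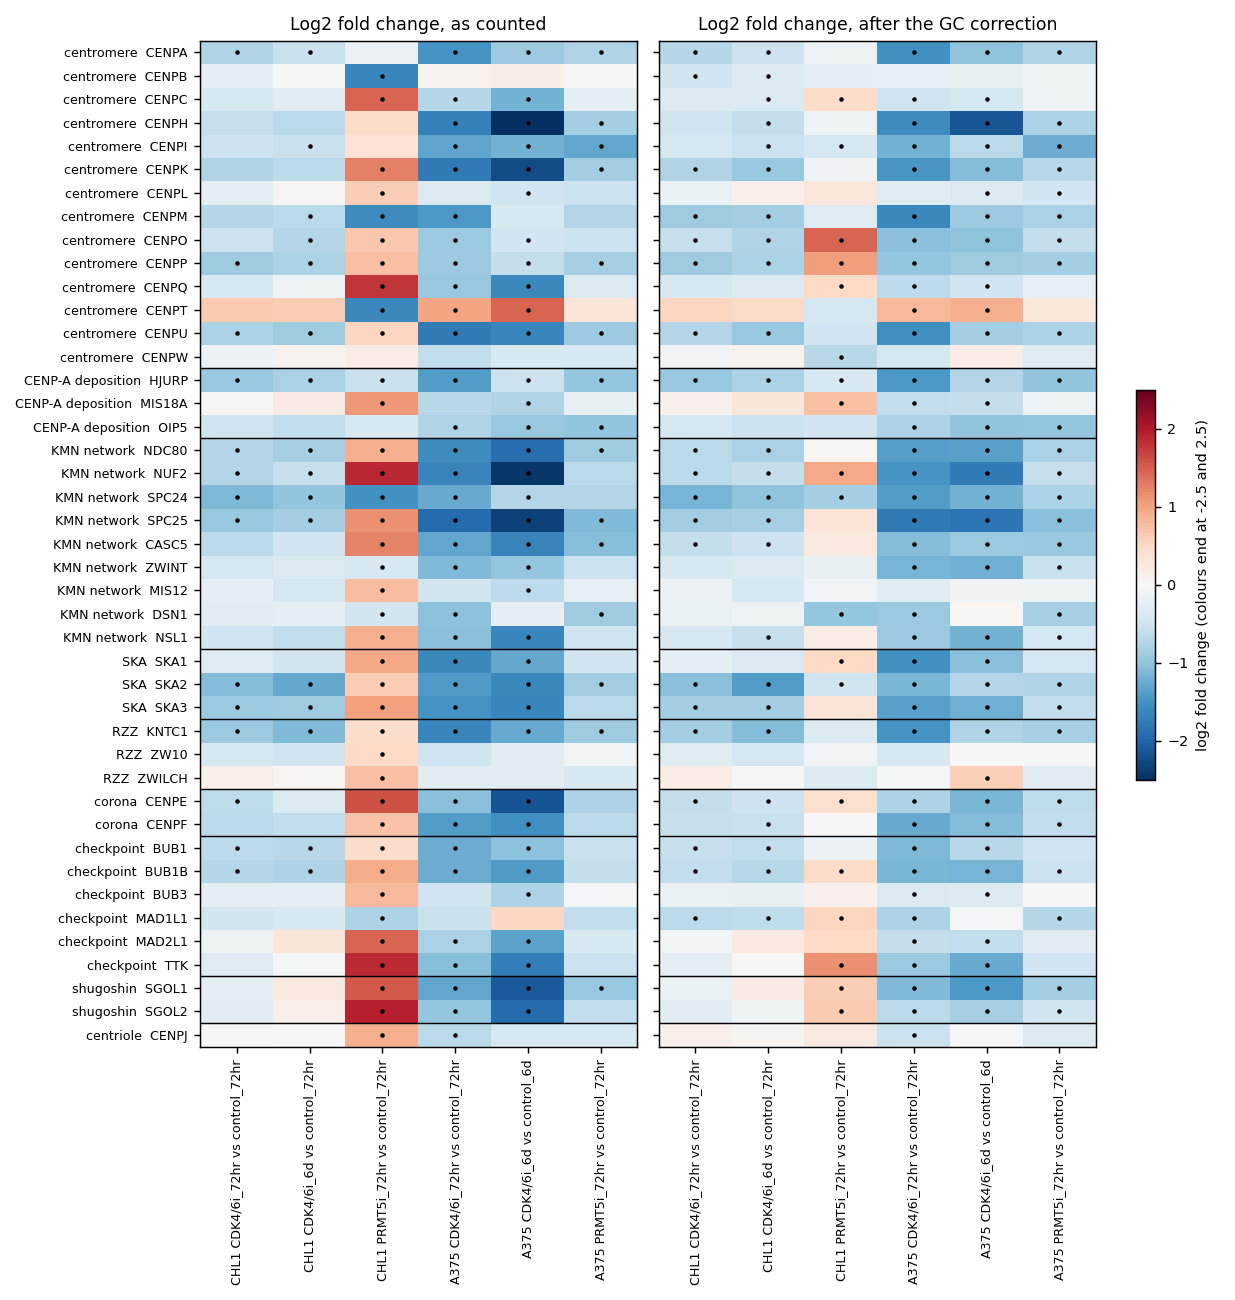
Log2 fold change of the 43 genes (rows, ordered by role) in the 6 comparisons of treated with control cells (columns), as counted (left) and after the GC correction (right), with a dot where the edgeR adjusted p was below 0.05. The columns of CDK4/6i and of PRMT5i in A375 are mostly blue on both sides, CENPT is red under CDK4/6i in both lines, and the red of CHL1 PRMT5i is weaker after the correction.

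Other genes of the pathway, from a list of 16 with 15 in the table (error correction at kinetochores, the chromosomal passenger complex, checkpoint cofactors and further centromere proteins), moved in part with the 43. Under CDK4/6i_72hr 4 of the 15 fell in CHL1 and 8 fell in A375, with 0 higher in both lines, against 2.72% and 7.11% of all genes lower (10 and 12 lower at an unadjusted p below 0.05, and 9 and 12 lower with the GC correction). The largest called falls were those of PLK1, the mitotic kinase (-1.07 ± 0.18, adjusted p = 0.00756), in CHL1 and AURKB, the kinase of the passenger complex (-1.71 ± 0.24, adjusted p = 0.000268), in A375. Under CDK4/6i_6d 5 fell and 1 rose in CHL1, led by PLK1 (-1.06 ± 0.18) and CENPV (1.29 ± 0.32), with 7.8% of all genes lower and 8.83% higher. The CENPV levels were low, with group means of 0.72 CPM in the CHL1 control and 1.76 CPM under CDK4/6i_6d. In A375 CENPV fell at 6 days (-0.78 ± 0.30, adjusted p = 0.0456, corrected -1.34). In A375 7 fell and 1 rose at 6 days, with 21.3% of all genes lower and 21.8% higher, and the gene that rose was MAD2L1BP (0.68 ± 0.23). After the GC correction 9 were lower and 1 higher in CHL1 and 10 lower and 0 higher in A375, where MAD2L1BP was no longer called (0.24, adjusted p = 0.28). Under PRMT5i 7 fell and 3 rose in CHL1, against 27.6% and 26.4% of all genes, with the largest called fall in STRA13 (-1.44 ± 0.24), a symbol also used for CENPX. With the GC correction 2 were lower and 2 higher. STRA13 was then no longer called (-0.13, adjusted p = 0.428), and INCENP went from called lower (-0.75) to called higher (0.37). In A375 edgeR called 0 of the 15 under PRMT5i (1.74% of all genes lower and 0.874% higher), with 5 lower at an unadjusted p below 0.05 and 5 lower with the GC correction.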

How the data were processed

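Poly-A RNA libraries (TruSeq) of CHL1 and A375 cells were sequenced as paired ends on a NextSeq500. Per the labels (submitters' processing notes), the authors aligned reads to GRCh37 with HISAT2 2.0.4 and counted them per gene with HTSeq 0.11.2, while the study's methods name another HTSeq version, run with default settings. The deposited values are whole-number counts per gene, and by default HTSeq assigns reads by strand, but whether the libraries keep strand is not given in the sources used here. Depth was 16213475 to 37424081 counts per library. The members and gene lists were chosen with earlier results of these data known.

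Counts were tested with the quasi-likelihood test of edgeR 4.0.16 (R 4.3.3) after TMM scaling, in one fit per cell line (8 CHL1 and 10 A375 libraries) and in one fit of all 18 libraries for differences between lines. P-values were adjusted by Benjamini-Hochberg over all 20705 genes, with a threshold of 0.05. Log2 fold changes used a prior count of 0.125, and each ± is the standard error, the fold change divided by the square root of F. No gene was filtered. CPM values were TMM-scaled over all libraries. The GC correction fitted each library's log2 CPM deviations against the GC content of the longest transcript (GENCODE on GRCh37, loess span 0.4) and entered the fit as an offset, for 13675 genes with a GC value and a mean of at least 1 CPM. Of the table's symbols, 15208 matched directly, 1148 through older symbols and 4349 not at all. The fits were tested on simulated data.

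Values in every library are given for 17 genes of known role and for the called gene with the largest rise and fall of each comparison. SKA1 and NUF2 were added after their values were seen. One gene of the wider pathway list is not reported here by name. Alternatives were DESeq2 1.42.0, limma 3.58.1 on log2(CPM + 1), other size factors, a filter on low counts, fewer or more libraries in the fit, a fold threshold, a replicate block and leaving out each library. Promoters came from the RefSeq table (GRCh38.p14). Whether replicate numbers pair the libraries is not stated in the labels.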

Additional observations from a re-analysis of the deposited data

Results flagged for a closer look

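The results below were singled out because the change under the same treatment differed between A375 and CHL1 by a test of the difference itself, in the edgeR fit of all 18 libraries. Under CDK4/6i_72hr 1 of the 43 genes differed, SKA1, with a log2 difference (A375 minus CHL1) of -1.25 (adjusted p = 0.028), against 0.241% of all genes more negative in A375 and 0.401% more positive. Under PRMT5i_72hr 34 of the 43 genes differed, 31 more negative and 3 more positive in A375, against 18.8% and 22.1% of all genes. CENPB, at 1.68, was the only called positive difference among the 17 genes described in every library, and after the GC correction it was 0.13 and not called.

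At the centromere and in the KMN network the PRMT5i differences were -1.65 for CENPC, -1.76 for NDC80, -2.27 for CASC5 and -0.95 for MIS12. In the corona they were -2.34 for CENPE and -1.35 for CENPF. Among checkpoint genes they were -0.97 for BUB1, -1.50 for BUB1B, -0.82 for BUB3, -1.82 for MAD2L1 and -2.38 for TTK, and for SGOL1 the difference was -2.45. The CHL1 PRMT5i libraries carry a GC tilt of -2.49 and -1.98, and after the GC correction CENPC (-0.58), NDC80 (-0.86), CASC5 (-1.21), CENPE (-1.02), BUB1B (-0.9998), TTK (-1.62) and SGOL1 (-1.47) were still called, while MIS12 (-0.069), CENPF (-0.60), BUB1 (-0.36), BUB3 (-0.10) and MAD2L1 (-0.78) were not. Whether the rest of these differences belongs to the lines or to the libraries was not tested.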

How the results depend on the processing

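Precision was limited by the 2 libraries per group. Of the single-gene results called in the main fit, 0 changed direction when 1 library was left out. That concerns direction only, and some of these results were no longer called. Under the other alternatives 981 single-gene results kept their side of the threshold, 43 lost the call, 81 gained it and 13 reversed. The single-gene results do not cover every gene of the set. A reversal was counted only where the value was called in the main fit or in the alternative. Changes of sign among values called in neither are therefore counted among the 981. Other size factors in edgeR and a filter on low counts moved no count of called genes by more than 1.5 times, and neither did the 1 CPM restriction without a correction. Except where named, the causes were not tested.

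Numbers of the 43 genes called moved with the fit as follows. For CDK4/6i_72hr in CHL1 (14) they were 3 with limma, 27 with only the compared groups and 2 with a threshold on size (log2 fold change of 1 or more in either direction). For CDK4/6i_6d in CHL1 (16) they were 25 with the GC correction and 2 with the size threshold. For PRMT5i in CHL1 (38) they were 19 with the GC correction and 17 with the size threshold. For PRMT5i in A375 (15) they were 6 with limma, 29 with only the compared groups, 28 with the GC correction, 3 with the size threshold and 32 with only the 6 A375 libraries of 72 hours, an alternative chosen after seeing the data. For PRMT5i against CDK4/6i in A375 (11) they were 26 with only the compared groups, 19 with the GC correction, 27 with the 6 libraries and 1 with the size threshold. For the change with time in A375 (0) they were 3 with DESeq2, and 1 with all 18 libraries and with the GC correction. For the difference between lines under CDK4/6i (1) they were 21 with only the compared groups and 6 with the GC correction.

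The gap between the layers became -0.040 for CDK4/6i_6d and 0.24 for PRMT5i in CHL1, and -0.11 at 72 hours and -0.28 at 6 days of CDK4/6i in A375, with the GC correction, and -0.12 at 6 days in A375 against the 72-hour control. Among the genes of known role described in every library, the GC correction reversed some log2 fold changes. That of CENPB became -0.34 and was then called for CDK4/6i_6d in CHL1. Under PRMT5i in CHL1 those of CENPF (-0.017), MIS12 (-0.064), BUB1 (-0.14), MAD1L1 (0.54) and ZW10 (-0.069) reversed. Other genes reversed there too. All 3 Ska genes were called higher as counted, and with the correction 1 was called lower (-0.50) and 1 higher. Over all members, negative values under PRMT5i in CHL1 numbered 10 of 43 as counted and 21 of 43 with the correction. CENPB reversed to -1.22 in A375 at 6 days against the 72-hour control. In the values set against that control, treatment cannot be told apart from time and the library naming scheme.

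Leaving out 1 library, with the lone library of a group assumed to vary like the other groups, gave 0 to 1 called genes for CDK4/6i_72hr and 2 to 14 for CDK4/6i_6d in CHL1, 28 to 37 for PRMT5i in CHL1, 20 to 29 for CDK4/6i_72hr and 28 to 37 for CDK4/6i_6d in A375, and 0 to 0 for PRMT5i in A375. It gave 0 to 0 for 6 days against 72 hours in CHL1, 34 to 38 and 0 to 0 for PRMT5i against CDK4/6i in CHL1 and A375, 0 to 18 for the change with time in A375, and 0 to 1 under CDK4/6i and 32 to 37 under PRMT5i for the difference between lines. The gap ranged from -0.17 to -0.046, -0.13 to 0.11 and 0.25 to 0.40 for CDK4/6i_72hr, CDK4/6i_6d and PRMT5i in CHL1. In A375 it ranged from -0.25 to -0.20, -0.83 to -0.44 and -0.086 to 0.027.

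A replicate block could be fitted where groups share replicate numbers, although nothing says that the numbers pair the libraries, and differences between same-numbered replicates correlated at -0.26 to 0.32 over CHL1 group pairs and at 0.13 to 0.38 over the A375 pairs of 72 hours. With the block, 36 genes were called for PRMT5i in A375, 33 for PRMT5i against CDK4/6i in A375 and 4 for the difference between lines under CDK4/6i. With the block and the GC correction these numbers were 33, 28 and 16, with 28 for CDK4/6i_6d and 20 for PRMT5i in CHL1. Among the genes of known role described in every library, that fit also reversed CENPB at 6 days in CHL1 (-0.34). Under PRMT5i in CHL1 it reversed CENPF (-0.035), MIS12 (-0.075), BUB1 (-0.15), MAD1L1 (0.55) and ZW10 (-0.079) among them. For the A375 samples of 6 days the labels give no replicate numbers, so no block was fitted.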
